A study of Mus musculus with 16 samples.

Results

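Genes by which mammalian cells sense lipopolysaccharide (LPS), together with acute-phase genes that follow such sensing, were examined in whole mouse brain. They were chosen by name for these roles, which gave 10 genes (Tlr4, Ly96, Cd14, Lbp, Tlr2, Myd88, Nfkbia, Il1r1, Saa3 and Lrg1) of the 49671 genes in the files. The choice was made with earlier results of these data known. All 10 passed the filter on low counts and were tested among 18875 genes.

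Messenger RNA was sequenced from 16 brains of C57BL/6 mice, 1 mouse per library and 4 mice per group. Pregnant dams received LPS or saline intraperitoneally on gestation day 16, and their offspring, described as male, received LPS or saline at postnatal day 30 and were collected at postnatal day 32. The LPS-LPS mice had LPS on both occasions, the LPS-saline mice had prenatal LPS and pubertal saline, the saline-LPS mice had prenatal saline and pubertal LPS, and the saline-saline mice had saline on both occasions. The labels name no genetic change in any group, and every mouse met a prenatal and a pubertal injection. The pair of words in a group name was read as the dam's injection before the offspring's, which the labels do not spell out. If the order were the reverse, prenatal and pubertal would change places throughout. Since no litters are named, some mice of 1 prenatal treatment could be littermates, and every p-value rests on the spread among the mice sampled.

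As background, LPS is a lipid of the outer membrane of Gram-negative bacteria. It is carried by the plasma protein LBP to CD14 and from there to the receptor TLR4 with its partner MD-2, the product of Ly96, and the adaptor MyD88 passes the signal on to the transcription factor NF-kB. In the brain these receptors are known mainly from microglia and from macrophages at the borders, while the receptor for interleukin-1 is known mainly from vessels. Acute-phase genes are those whose products rise in plasma or tissue during inflammation.

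The promoters of the acute-phase gene that changed (Saa3), of an acute-phase gene without a call (Lrg1) and of the NF-kB inhibitor gene (Nfkbia) show how the genes differ in the letters that NF-kB and C/EBP factors are known to bind. Each sequence runs 5′ to 3′ on the gene's own strand, the minus strand in all 3, from 250 bases before to 50 bases after the start (RefSeq, GRCm38.p6; chr7:46715627-46715926 for Saa3, chr17:56121897-56122196 for Lrg1 and chr12:55492598-55492897 for Nfkbia). Capitals mark matches to GGGANNNNCC (called a kappaB match here) or to TTGCNNAA (a C/EBP match), searched on both strands.
Saa3: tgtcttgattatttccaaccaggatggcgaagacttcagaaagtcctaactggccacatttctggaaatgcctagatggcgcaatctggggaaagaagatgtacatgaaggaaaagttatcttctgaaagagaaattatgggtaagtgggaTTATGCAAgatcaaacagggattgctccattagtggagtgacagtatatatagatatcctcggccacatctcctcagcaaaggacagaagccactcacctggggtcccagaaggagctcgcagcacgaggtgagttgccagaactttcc
Lrg1: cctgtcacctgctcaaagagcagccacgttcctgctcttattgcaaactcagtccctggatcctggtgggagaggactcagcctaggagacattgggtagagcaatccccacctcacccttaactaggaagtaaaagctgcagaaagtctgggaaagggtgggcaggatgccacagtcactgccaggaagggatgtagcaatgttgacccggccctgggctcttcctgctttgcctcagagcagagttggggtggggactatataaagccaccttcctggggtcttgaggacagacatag
Nfkbia: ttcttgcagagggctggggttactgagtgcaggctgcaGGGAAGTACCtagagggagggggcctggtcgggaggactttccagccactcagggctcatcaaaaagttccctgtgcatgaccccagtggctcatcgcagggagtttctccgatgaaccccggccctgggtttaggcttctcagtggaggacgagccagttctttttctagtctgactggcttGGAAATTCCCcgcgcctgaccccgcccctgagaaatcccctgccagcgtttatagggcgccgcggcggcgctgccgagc
Saa3 held 1 C/EBP match, TTATGCAA, at position -99 from the start, and no kappaB match. Nfkbia held 2 kappaB matches, GGGAAGTACC at -212 and GGAAATTCCC at -29, and Lrg1 held neither motif. Of all 32851 promoters of the same length, 20.7% held a kappaB match and 10.8% a C/EBP match. Promoters of 6 of the 10 genes were matched in the table. Of the other 3 matched genes, Tlr2 held 2 kappaB matches, Il1r1 1 C/EBP match in 1 of its pair of promoters, and Myd88 neither. A match describes letters only, and the letters chosen were set after matches had been seen.

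Libraries held 25729919 to 38571036 counts in genes, so that 1 read stood for 0.0259 to 0.0386 CPM (counts scaled to library size), the scale used below. Neuronal markers summed to 3096 to 3938 CPM over the 16 libraries, and no marker of the brain cell types checked was at 0 in all libraries. In LPS-LPS replicate 3 the female-specific RNA Xist was at 503 CPM, although the offspring were described as male. Pituitary hormone genes summed to 817 CPM in LPS-LPS replicate 1 and to 62.6 CPM in saline-LPS replicate 1, against 4.78 to 8.23 CPM in the libraries of the LPS-saline and saline-saline groups. Results are given below without these 3 libraries where that moved them. The cerebellar gene Gabra6 lay under 1 CPM in 8 libraries, spread over all 4 groups, and above it in the other 8.

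Per kilobase of exonic length, the 10 genes spanned a wide range of levels over the 16 libraries. Nfkbia, which encodes the inhibitor that holds NF-kB in the cytoplasm, stood highest at 12.07 ± 1.39 CPM per kilobase (SD, n = 16), above 78.2% of the 18826 tested genes with a length. Lbp (1.52 ± 0.22), Myd88 (1.47 ± 0.18), Cd14 (1.31 ± 0.28) and Lrg1 (1.22 ± 0.33 CPM per kilobase) followed, and neighbours among these 4 differed by less than their spread. Il1r1 (0.728 ± 0.175), Ly96 (0.511 ± 0.092) and Tlr2 (0.455 ± 0.097 CPM per kilobase) came next, with Il1r1 above Ly96 in 14 of 16 libraries and Ly96 above Tlr2 in 12. Saa3 (0.255 ± 0.333) and Tlr4 (0.237 ± 0.064 CPM per kilobase) were lowest. For Saa3 this mean joined libraries at 0 and libraries up to 1.14 CPM per kilobase.

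**Figure D1:**
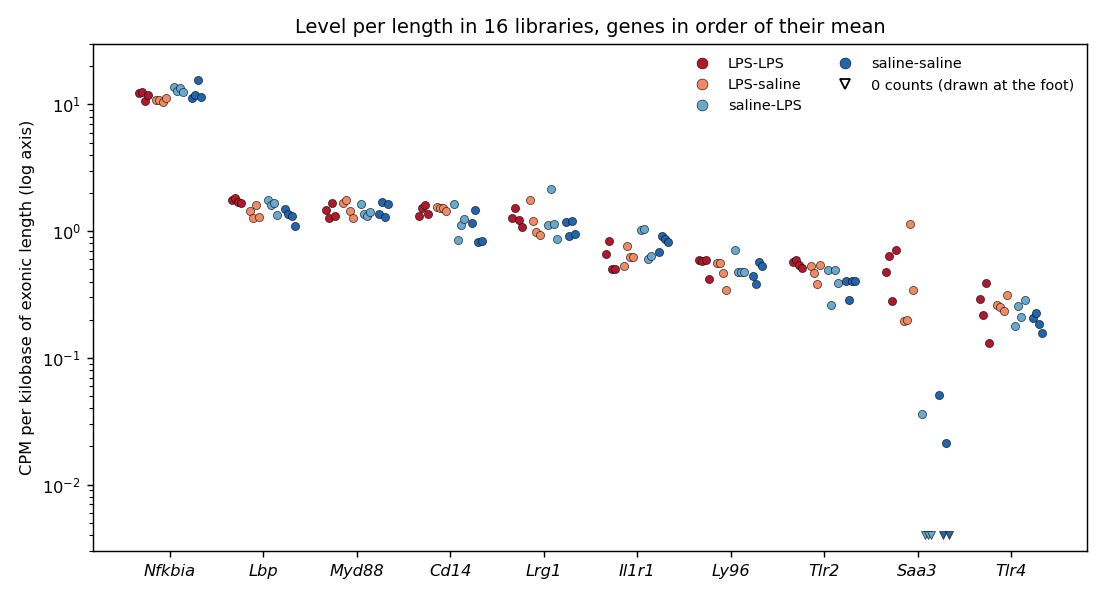
Level of each of the 10 genes in CPM per kilobase of exonic length (log axis), 1 point per library (4 libraries in each of 4 groups, coloured), with genes in order of their mean and triangles for libraries with 0 counts. Nfkbia lies between 10.4 and 15.7, apart from the rest, and Saa3 is the gene whose points separate by prenatal injection.

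Of these genes, Saa3 separated the prenatal groups. Saa3 encodes serum amyloid A3, an acute-phase apolipoprotein made outside the liver by macrophages, adipocytes and epithelia in mice (chromosome 7, 46711998 to 46715700 in GRCm38, minus strand). It had 39, 50, 23 and 56 counts in LPS-LPS and 15, 20, 105 and 23 counts in LPS-saline, against 3, 0, 0 and 0 counts in saline-LPS and 5, 0, 2 and 0 counts in saline-saline. All 8 libraries after prenatal LPS lay above all 8 after prenatal saline, 331 counts in all against 10, and 5 of the 8 after prenatal saline had none. This is a low level even where it was highest: the mean was 1.37 ± 0.50 in LPS-LPS, 1.22 ± 1.17 in LPS-saline, 0.0234 ± 0.0469 in saline-LPS and 0.0473 ± 0.0632 in saline-saline (CPM, SD, n = 4 each).

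Averaged over the pubertal injection, Saa3 rose by 5.05 ± 0.66 on the log2 scale (SE; 95% interval 3.82 to 6.59; adjusted p = 0.000478 by the quasi-likelihood test of edgeR, adjusted after Benjamini and Hochberg over all tested genes). The ratio of summed counts, scaled by depth, was 34.0 with a counting interval of 18.3 to 71.6, which covers counting error only. Before pubertal saline the log2 fold change was 4.51 ± 0.85 in edgeR (adjusted p = 0.0389) and before pubertal LPS it was 5.59 ± 1.00 (adjusted p = 0.0154), and these 2 comparisons share no library, though both came from 1 fit with a common estimate of the spread. Values after ± are standard errors wherever a log2 difference is given. With so few counts after prenatal saline the size is loosely known: the ratio of summed counts was 24.8 (11.8 to 62.8) before pubertal saline and 55.2 (18.6 to 270.5) before pubertal LPS.

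The averaged rise of Saa3 was called in each of the 16 fits that left out 1 library, with an adjusted p of 2.48e-05 to 0.00272. Before pubertal saline it was called in only 5 of the 16, with an adjusted p of 0.0283 to 0.15. The call was lost without any 1 of the 4 saline-saline libraries, of saline-LPS replicates 2, 3 and 4, of LPS-LPS replicates 1, 2 and 4, or of LPS-saline replicate 3. It was also lost without the filter on low counts (edgeR adjusted p = 0.0663), with offsets for length and GC content (0.0509) and with these offsets and the replicate block (0.0627). Saa3 had reached that filter through its libraries after prenatal LPS alone. LPS-saline replicate 3, at 2.96 CPM against 0.509 to 0.888 CPM in the other 3 mice of its group, moved the log2 value to 3.54 when it was left out (adjusted p = 0.0715), and the group mean to 0.638 ± 0.217 CPM. Before pubertal LPS the call was lost without saline-LPS replicate 3 (log2 5.22, adjusted p = 0.0519) and without saline-LPS replicate 1 (adjusted p = 0.0638), after which that group held 0 counts and the fitted fold has no meaning. DESeq2 gave Saa3 no adjusted p in the prenatal comparisons, with unadjusted p of 1.90e-06 before pubertal saline and 5.29e-07 before pubertal LPS.

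Since all 8 libraries after prenatal LPS lay above all 8 after prenatal saline, any subset of them has the same order. The values and each adjusted p within subsets are given as a description and add no support, since a subset could not have shown another order. Among libraries under 1 CPM of Gabra6, Saa3 had 15 to 50 counts in 3 mice after prenatal LPS, against 0 to 5 counts in 5 mice after prenatal saline (edgeR adjusted p = 0.015). Among those at 1 CPM or more, it had 23 to 105 counts in 5 mice after prenatal LPS, against 0 counts in all 3 mice after prenatal saline (edgeR adjusted p = 0.0279, with no fold to give against a group at 0). Without the 3 libraries with pituitary transcripts or Xist, the sums were 269 counts in 6 mice after prenatal LPS, against 7 counts in 7 mice after prenatal saline (averaged comparison, edgeR adjusted p = 0.0187). Before pubertal LPS alone, the comparison without these 3 libraries left 2 LPS-LPS mice against 3 saline-LPS mice at 0 counts, and Saa3 was no longer called (adjusted p = 0.355).

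Cell types that could carry Saa3 were read from their marker genes. The sum of 9 neutrophil markers was 2.34 to 5.92 CPM in LPS-LPS, 3.22 to 6.94 CPM in LPS-saline, 1.25 to 4.55 CPM in saline-LPS and 1.22 to 4.596 CPM in saline-saline. Neutrophil markers thus overlapped between all 4 groups, and the averaged comparison called 0 of the 5 that could be tested, whose median log2 difference was 0.50. The sum of 8 border macrophage and monocyte markers was 19.4 to 21.03, 17.4 to 20.2, 17.8 to 21.2 and 14.7 to 18.4 CPM in the same order of groups, and 0 of 7 tested were called (median 0.14). That of 8 meningeal and fibroblast markers was 307 to 353, 283 to 341, 273 to 346 and 273 to 319 CPM. Of these 8, edgeR called 2 higher and none lower in the averaged comparison (median 0.15), namely Foxc2 (log2 0.65, adjusted p = 0.0174) and Dcn (log2 0.23, adjusted p = 0.0405). Of the 8 microglial markers 1 was called, Aif1, which was higher (log2 0.42, edgeR adjusted p = 0.0128). These sums overlapped between groups whose Saa3 counts did not, except that all LPS-LPS mice lay above all saline-saline mice in the border macrophage sum. Over the 16 libraries the log2 level of Saa3 had Pearson r = 0.202 with the neutrophil sum, 0.213 with the border macrophage sum, 0.385 with the microglial sum and 0.397 with the meningeal sum, as a description of libraries that share their groups. The part of these cells in the level of Saa3 was not tested, and in whole tissue a change in the number of cells and a change in RNA per cell cannot be told apart.

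**Figure D2:**
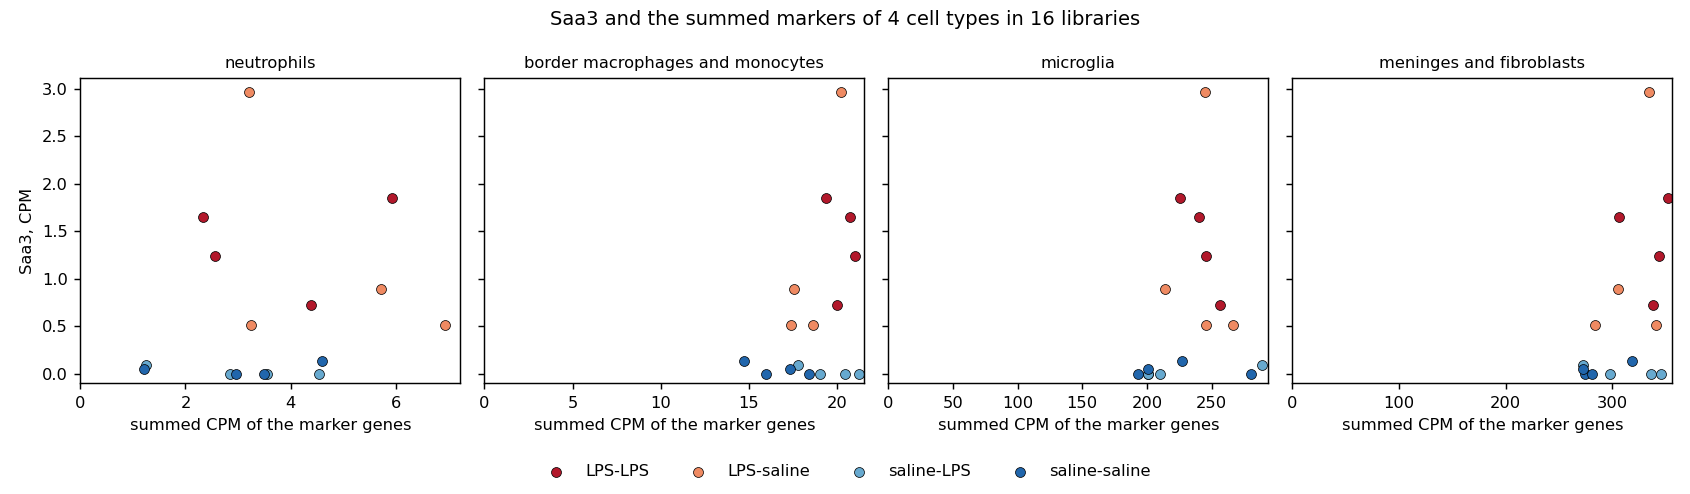
Saa3 in CPM against the summed CPM of marker genes of neutrophils, border macrophages and monocytes, microglia, and meninges and fibroblasts, 1 point per library (4 in each of 4 groups, coloured). The 8 libraries after prenatal LPS lie at 0.509 CPM of Saa3 or more and the 8 after prenatal saline at 0.134 CPM or less, while the marker sums of the groups overlap along each horizontal axis, apart from LPS-LPS and saline-saline for border macrophages.

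Saa3 has near relatives in the genome whose reads could be confused with its own. Saa1, the liver-type serum amyloid, had 14, 3, 3 and 5 counts in LPS-LPS, LPS-saline, saline-LPS and saline-saline as group sums, and Saa2 had 3, 5, 5 and 7 counts. Saa4 had 0 counts in all 16 libraries. Neither Saa1 nor Saa2 reached the filter, and neither showed the separation by prenatal injection seen for Saa3. Reads whose alignment was not unique were not counted in genes, so confusion of reads between these relatives was not tested.

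The other acute-phase gene of the group, Lrg1, was not called. It encodes a leucine-rich glycoprotein of plasma that acts on vessels (chromosome 17, 56119678 to 56122001, minus strand). Its mean level was 1.79 ± 0.26 in LPS-LPS, 1.71 ± 0.53 in LPS-saline, 1.85 ± 0.79 in saline-LPS and 1.495 ± 0.209 in saline-saline (CPM, SD, n = 4 each). The groups overlapped throughout, with the highest mouse, at 3.004 CPM, in saline-LPS. The averaged prenatal log2 difference was 0.08 ± 0.17 in edgeR (95% interval -0.28 to 0.44, adjusted p = 0.831).

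**Figure D3:**
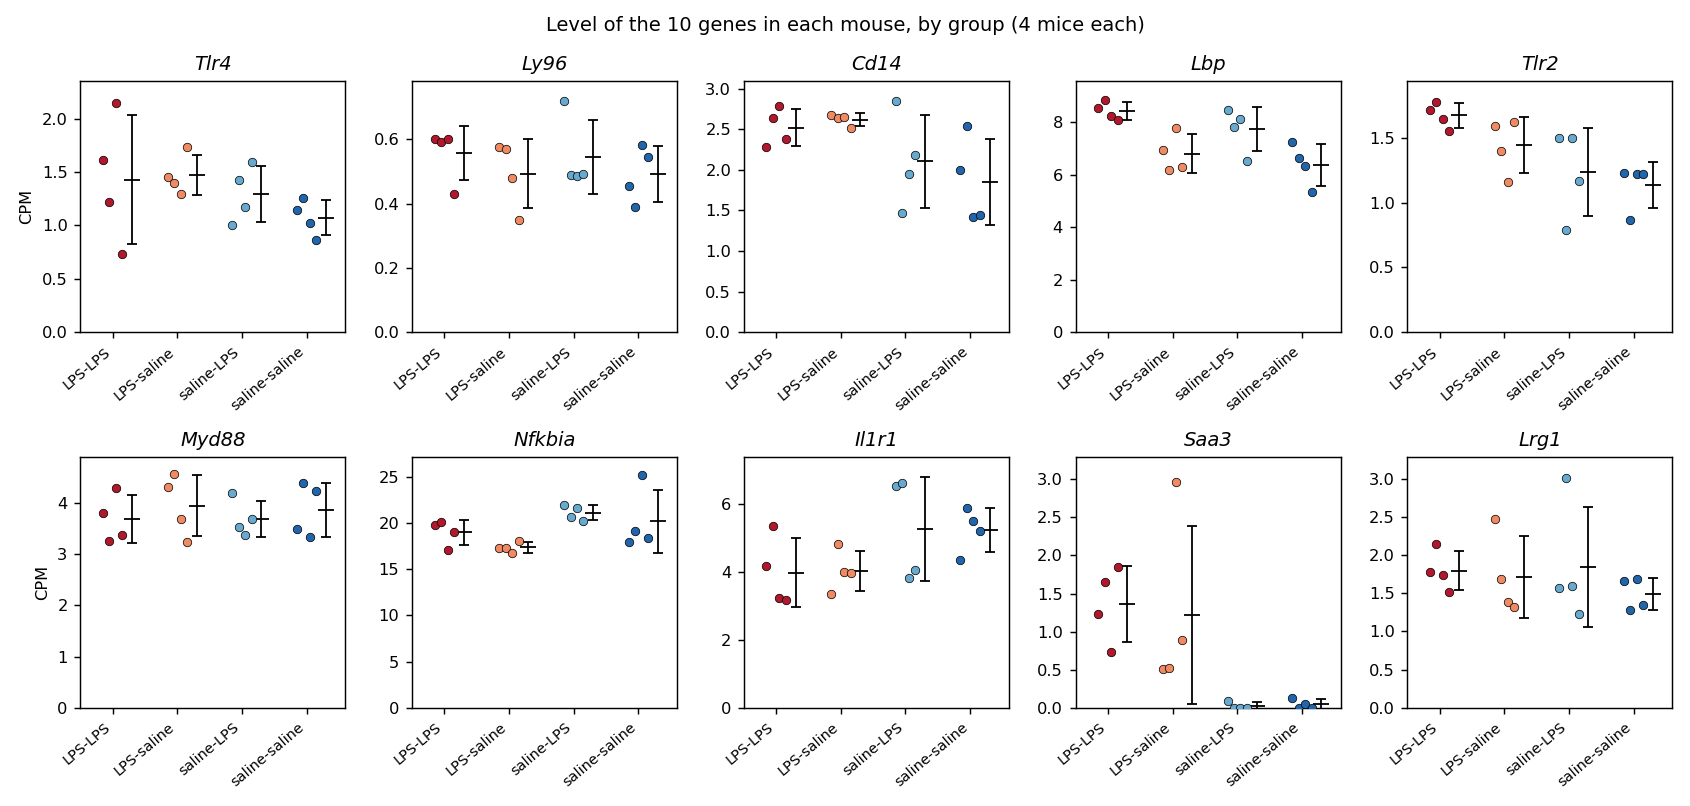
Level of each of the 10 genes in CPM (axes start at 0), with 4 mice per group as points and the mean with SD as bars beside them; the panels run from the receptor complex to the acute-phase genes. Saa3 is near 0 in both groups after prenatal saline, Cd14 after prenatal LPS lies between 2.28 and 2.78 CPM, and Lbp in LPS-LPS lies between 8.07 and 8.86 CPM.

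Of the receptor complex for LPS, none of the 4 genes was called after prenatal LPS. Tlr4, the receptor that dimerises when LPS is bound (chromosome 4, 66827584 to 66930284, plus strand), had 51, 37, 68 and 22 counts in LPS-LPS and 43, 54, 46 and 45 in LPS-saline, against 32, 38, 36 and 52 in saline-LPS and 43, 42, 37 and 27 in saline-saline. LPS-saline mice, at 1.30 to 1.74 CPM, all lay above saline-saline mice, at 0.867 to 1.25 CPM. LPS-LPS mice spread from 0.728 to 2.15 CPM and took in the whole range of saline-LPS. The log2 difference of Tlr4 was 0.44 ± 0.25 before pubertal saline (edgeR adjusted p = 0.473) and 0.29 ± 0.18 averaged (95% interval -0.07 to 0.66, adjusted p = 0.344). The averaged value was -0.04 without the 3 libraries with pituitary transcripts or Xist.

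Ly96, whose product MD-2 binds the lipid of LPS beside TLR4 (chromosome 1, 16688051 to 16709611, plus strand), had 9 to 23 counts per library and 269 in all, the fewest of the 10 genes in total. It was at 0.557 ± 0.084 CPM in LPS-LPS, 0.493 ± 0.107 in LPS-saline, 0.546 ± 0.115 in saline-LPS and 0.493 ± 0.088 CPM in saline-saline (SD, n = 4 each). The averaged log2 difference was 0.02 with a 95% interval of -0.37 to 0.41 (edgeR adjusted p = 0.965), so at this depth a change of a size within that interval was not excluded.

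Cd14, the co-receptor that hands LPS to TLR4 (chromosome 18), had 72, 80, 88 and 72 counts in LPS-LPS and 79, 102, 94 and 65 in LPS-saline, against 91, 39, 60 and 71 in saline-LPS and 75, 85, 51 and 45 in saline-saline. After prenatal LPS the 8 mice kept within 2.28 to 2.78 CPM, while the 8 after prenatal saline spread from 1.41 to 2.84 CPM and overlapped them. The averaged log2 difference was 0.38 ± 0.14 (95% interval 0.09 to 0.66) and did not pass in edgeR (unadjusted p = 0.0117, adjusted p = 0.0927). It passed without saline-LPS replicate 1 (0.46, adjusted p = 0.0374), the highest mouse of its group, without saline-saline replicate 2 (0.47, adjusted p = 0.0435), and with Gabra6 as a covariate (0.41, adjusted p = 0.0383). Cd14 was the gene of the 10 that followed microglia most closely among those set against the microglial sum: over 16 libraries its log2 level had r = 0.806 (Spearman 0.862) with the sum of 8 microglial markers, against 0.231 for Tlr2, 0.174 for Tlr4 and 0.385 for Saa3. That sum was 225 to 257 CPM in LPS-LPS, 214 to 266 in LPS-saline, 201 to 289 in saline-LPS and 193 to 281 CPM in saline-saline, so it overlapped between groups as Cd14 did, and 1 of its 8 markers, Aif1, was called higher in the averaged comparison (log2 0.42, edgeR adjusted p = 0.0128). Its part in the difference of Cd14 was not tested.

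Lbp encodes the plasma protein that extracts LPS from membranes (chromosome 2, 158306493 to 158332852, plus strand), and it was the 1 gene of the 10 with an unadjusted p under 0.05 for pubertal LPS. It was at 8.53, 8.86, 8.22 and 8.07 CPM in LPS-LPS, at 6.95, 6.17, 7.78 and 6.30 in LPS-saline, at 8.47, 7.81, 8.12 and 6.53 in saline-LPS, and at 7.24, 6.63, 6.32 and 5.33 CPM in saline-saline. All 4 LPS-LPS mice lay above all LPS-saline mice and above all saline-saline mice, and 3 of the 4 saline-LPS mice lay above all saline-saline mice. The share of all genes without overlap was not counted for these pairs of groups. For prenatal LPS it was 9.12% before pubertal saline and 7.94% before pubertal LPS, so such a separation is not rare with 4 mice per group. Averaged over the prenatal injection, pubertal LPS gave a log2 difference of 0.29 ± 0.08 (95% interval 0.13 to 0.45), which did not pass over all genes (edgeR, unadjusted p = 0.00115, adjusted p = 0.888). The value was 0.31 ± 0.11 after prenatal LPS and 0.27 ± 0.11 after prenatal saline. The prenatal difference was 0.11 ± 0.08 (edgeR adjusted p = 0.447).

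With both injections against none, Lbp rose by 0.40 ± 0.11 on the log2 scale (95% interval 0.17 to 0.63; edgeR adjusted p = 0.0324), with means of 8.42 ± 0.35 CPM in LPS-LPS and 6.38 ± 0.80 CPM in saline-saline (SD, n = 4 each). The call was lost in 7 of the 16 fits that left out 1 library, namely each of the 4 LPS-LPS libraries and saline-saline replicates 2, 3 and 4, with a log2 value of 0.32 to 0.42 and an adjusted p of 0.0599 to 0.123. It was also lost without the 3 libraries with pituitary transcripts or Xist (0.41, adjusted p = 0.154), while DESeq2 called it (adjusted p = 0.00923). Over the 16 libraries the log2 level of Lbp had r = 0.419 with the sum of choroid plexus markers and 0.316 with that of astrocyte markers. The choroid plexus sum was 299 to 496 CPM in LPS-LPS, 327 to 445 in LPS-saline, 309 to 610 in saline-LPS and 298 to 408 CPM in saline-saline. With both injections against none, 1 of 6 choroid plexus markers was called, Aqp1, which was higher (log2 0.502, edgeR adjusted p = 0.0172), and 1 astrocyte marker, Gfap, was higher (log2 0.33, edgeR adjusted p = 0.0103). Their part in the rise of Lbp was not tested.

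Tlr2, which with Tlr1 or Tlr6 senses bacterial lipoproteins and not LPS itself (chromosome 3, 83836272 to 83841767, minus strand), had 54, 54, 52 and 47 counts in LPS-LPS and 47, 54, 41 and 42 in LPS-saline, against 48, 21, 46 and 38 in saline-LPS and 46, 29, 44 and 38 in saline-saline. LPS-LPS mice, at 1.56 to 1.78 CPM, lay above all saline-LPS mice (0.788 to 1.5003 CPM) and all saline-saline mice (0.866 to 1.23 CPM). Between LPS-LPS and saline-LPS 7.94% of all genes did not overlap, and between LPS-LPS and saline-saline that share was not counted. LPS-saline mice, at 1.16 to 1.62 CPM, overlapped both groups after prenatal saline. The averaged log2 difference was 0.38 ± 0.14 (95% interval 0.09 to 0.68; edgeR adjusted p = 0.101), with 0.34 ± 0.20 before pubertal saline and 0.43 ± 0.20 before pubertal LPS. With both injections against none it was 0.56 ± 0.20 (edgeR adjusted p = 0.0952). None of these passed.

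Myd88, the adaptor shared by most Toll-like receptors and by the interleukin-1 receptors (chromosome 9, 119335934 to 119341411, minus strand), varied little: 3.69 ± 0.47 CPM in LPS-LPS, 3.95 ± 0.59 in LPS-saline, 3.69 ± 0.35 in saline-LPS and 3.86 ± 0.53 CPM in saline-saline (SD, n = 4 each). The averaged prenatal log2 difference was 0.02 with a 95% interval of -0.19 to 0.22 (edgeR adjusted p = 0.941). It shares 290 exonic bases with Acaa1a on the opposite strand, and without a stated strand setting reads of the 2 genes cannot be told apart there.

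Nfkbia and Il1r1 were the 2 genes with lower averages after prenatal LPS, and neither passed in edgeR. Nfkbia is itself a target of NF-kB, through which the signal limits itself (chromosome 12, 55489410 to 55492647, minus strand). It was at 19.8, 20.1, 17.1 and 19.03 CPM in LPS-LPS and 17.4, 17.3, 16.7 and 18.1 CPM in LPS-saline, against 21.97, 20.7, 21.7 and 20.2 CPM in saline-LPS and 18.01, 19.2, 25.2 and 18.3 CPM in saline-saline. All LPS-LPS mice lay below all saline-LPS mice, whereas LPS-saline and saline-saline overlapped narrowly, the highest LPS-saline mouse at 18.08 CPM lying above the lowest saline-saline mouse at 18.01 CPM. The averaged log2 difference was -0.19 ± 0.06 (95% interval -0.32 to -0.05; edgeR adjusted p = 0.0773), with -0.22 ± 0.09 before pubertal saline and -0.15 ± 0.09 before pubertal LPS. Without saline-saline replicate 3, the mouse at 25.2 CPM, the value was -0.096 before pubertal saline and -0.13 averaged (edgeR adjusted p = 0.633 and 0.125). It passed with offsets for length and GC content (-0.27, adjusted p = 0.023), with these offsets and the replicate block (-0.26, adjusted p = 0.0217), and in DESeq2 (-0.19, adjusted p = 0.0397).

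Il1r1, the signalling receptor for interleukin-1 (chromosome 1, 40225080 to 40317257, plus strand), had 132, 163, 102 and 96 counts in LPS-LPS and 99, 186, 142 and 103 in LPS-saline, against 209, 177, 118 and 133 in saline-LPS and 163, 197, 199 and 162 in saline-saline. It averaged 4.01 ± 0.78 CPM after prenatal LPS and 5.26 ± 1.09 CPM after prenatal saline (SD, n = 8 each), with overlap in both pubertal settings. The averaged log2 difference was -0.38 ± 0.14 (95% interval -0.67 to -0.10; edgeR adjusted p = 0.0861), with -0.37 ± 0.19 before pubertal saline and -0.40 ± 0.19 before pubertal LPS. With the replicate number of the labels as a block it passed (-0.39, adjusted p = 0.0204), as it did in DESeq2 (-0.39, adjusted p = 0.0366). It also passed without LPS-LPS replicate 2 (-0.47, adjusted p = 0.0372), without saline-LPS replicate 3 (-0.45, adjusted p = 0.0392) and without saline-LPS replicate 4 (-0.44, adjusted p = 0.0492). Its log2 level had r = 0.543 (Spearman 0.621) with the sum of 7 endothelial markers, which ran from 123 to 156 CPM in LPS-LPS, 133 to 211 in LPS-saline, 107 to 225 in saline-LPS and 132 to 232 CPM in saline-saline. With the cerebellar granule cell sum it had r = -0.461 (Spearman -0.697). The part of either in the difference was not tested.

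**Figure D4:**
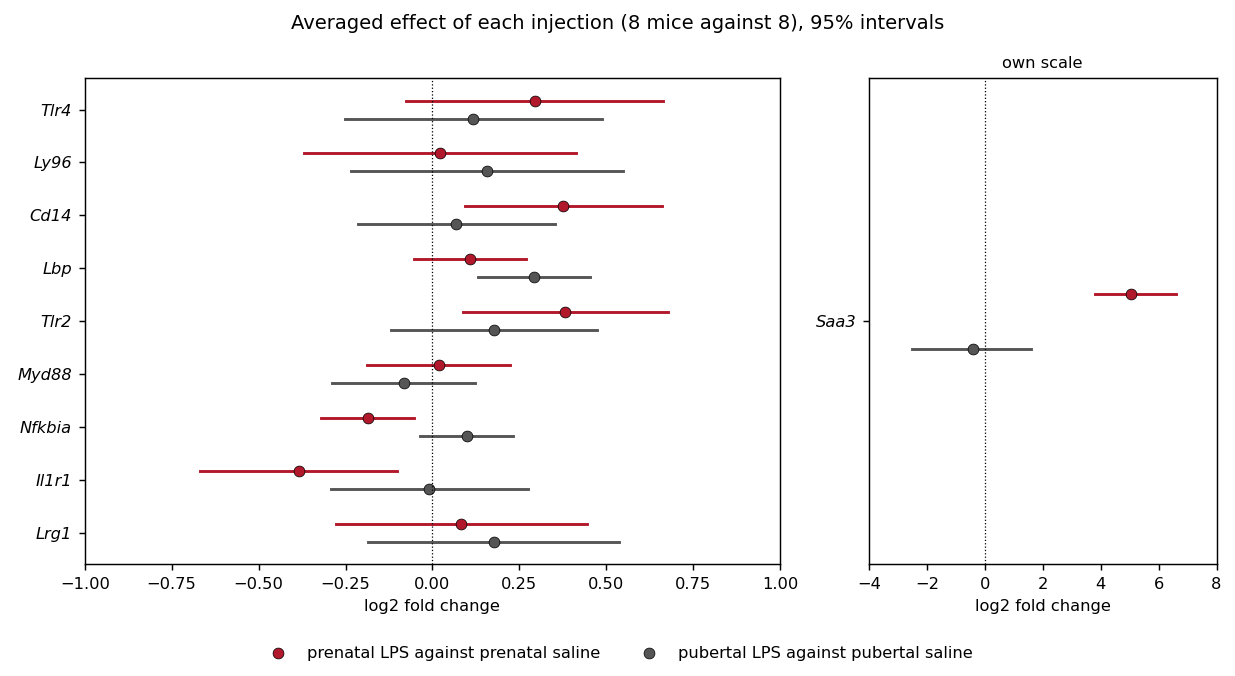
Log2 fold change of each of the 10 genes with its 95% interval from edgeR, for prenatal LPS against prenatal saline and for pubertal LPS against pubertal saline, each averaged over the other injection (8 mice against 8), with Saa3 on its own axis. The prenatal interval of Saa3 runs from 3.82 to 6.59; those of Cd14 and Tlr2 lie above 0 and those of Nfkbia and Il1r1 below 0 without passing over all genes, and Lbp is the gene whose pubertal interval lies above 0.

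Taking the 10 genes as a set of counts, 1 was called before pubertal saline, where 0.18% of all tested genes were, 1 before pubertal LPS, where 0.609% were, and 1 in the averaged prenatal comparison, where 7.82% were. Saa3 was that gene each time, and it had reached the filter on low counts through its libraries after prenatal LPS alone. The 10 genes were chosen with earlier results of these data known, so the shares of all genes stand beside them as a description only. With both injections against none, 2 were called, Saa3 (log2 4.65 ± 0.85, edgeR adjusted p = 0.00574) and Lbp, against 6.56% of all genes. The median log2 difference of the 10 genes was 0.14 before pubertal saline, 0.07 before pubertal LPS, 0.09 averaged and 0.33 with both injections against none, with the median of all genes within 0.01 of 0 in each. The groups did not overlap for 2 of the 10 before pubertal saline (Saa3 and Tlr4; 9.12% of all genes), for 3 before pubertal LPS (Saa3 and Tlr2 higher, Nfkbia lower; 7.94%) and for 1 in the averaged comparison (Saa3; 0.906%). Without Saa3, 0 of the other 9 genes were called in these prenatal comparisons and 1 of 9 with both injections against none. In edgeR fits within libraries under and over 1 CPM of Gabra6, the averaged log2 difference was 0.34 and 0.55 for Cd14, 0.52 and 0.24 for Tlr2, -0.18 and -0.12 for Nfkbia and -0.33 and -0.27 for Il1r1, with none called in either set.

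For pubertal LPS, edgeR called 0 of the 10 genes and 0 of all 18875 genes (0% called) after prenatal LPS, after prenatal saline and averaged. At an unadjusted p under 0.05 in edgeR there were 756, 535 and 947 genes in these comparisons, of which Lbp was the 1 member each time. With no effect at all, a share of about 0.05 of the 18875 genes would fall there, so these counts are no sign of a response. DESeq2 called 9, 0 and 7 genes, none of them a member. The median log2 difference of the 10 genes was 0.10, 0.14 and 0.11 in the same order. Saa3, with 171 counts in 8 mice after pubertal LPS and 170 counts in 8 mice after pubertal saline, had an averaged log2 value of -0.39 with a wide 95% interval of -2.497 to 1.603 (edgeR adjusted p = 0.991). The interaction, which asks whether the response to pubertal LPS depended on the prenatal injection, had 0 calls (0% of all genes, 402 at an unadjusted p under 0.05 and 0 of the 10 among them, and 2 calls by DESeq2). For Saa3 its value was 1.08 with an interval of -2.89 to 5.25, so that a difference in response of many-fold either way was not excluded with the counts after prenatal saline.

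The rest of the pathway was read from lists by role in the averaged prenatal comparison, in which 4.9% of all tested genes were called higher and 2.92% lower (7.82% in either direction). Of the signalling chain downstream of the receptors 27 of 28 genes were tested, 2 rose and 1 fell. Tab1, a partner of the kinase TAK1, was at 36.0 ± 1.6 CPM after prenatal LPS and 31.1 ± 2.5 CPM after prenatal saline (SD, n = 8 each; log2 0.21, edgeR adjusted p = 0.0174). Ptafr, the receptor for platelet-activating factor, had a log2 value of 0.54 (adjusted p = 0.0302), and Chuk, the kinase IKK-alpha, fell by 0.22 on the log2 scale (adjusted p = 0.0158). All 3 lost their call with offsets for length and GC content (adjusted p = 0.106 for Tab1, 0.0503 for Ptafr and 0.0719 for Chuk). Ptafr also lost it in 5 of the 16 fits without 1 library (LPS-LPS replicates 3 and 4, LPS-saline replicate 1, saline-saline replicates 3 and 4), with an adjusted p of up to 0.0782. The median log2 value of the chain was -0.04.

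Of 23 genes that restrain Toll-like receptor and NF-kB signalling, all tested, 2 rose and 1 fell, beside 4.9% and 2.92% of all genes, and the median was -0.02. Tnfaip8l2, known as TIPE2, was at 3.35 ± 0.52 CPM after prenatal LPS and 2.15 ± 0.37 CPM after prenatal saline (SD, n = 8 each; log2 0.64, edgeR adjusted p = 0.00402). Cd180, a receptor-like protein that binds the MD-2 relative MD-1, rose by 0.65 on the log2 scale (adjusted p = 0.0246), a call lost without LPS-LPS replicate 3 (0.53, adjusted p = 0.0666), without LPS-saline replicate 1 (0.58, adjusted p = 0.0662) and without saline-saline replicate 2 (0.62, adjusted p = 0.0529). Otud7b, a deubiquitinase, fell by 0.24 (adjusted p = 0.00873). Of 13 other Toll-like receptors and their chaperones, 11 were tested and 2 rose, beside the same 4.9%: Tlr1, the partner of Tlr2, at 0.911 ± 0.108 CPM after prenatal LPS and 0.489 ± 0.186 CPM after prenatal saline (log2 0.89, adjusted p = 0.013), and Unc93b1, the transporter of the endosomal receptors (log2 0.42, adjusted p = 0.00402). Their median was 0.14.

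Of 28 other acute-phase genes, 27 were in the files and 12 were tested, of which 3 rose and none fell, beside 4.9% and 2.92% of all genes. Most of the liver genes of this list did not reach the filter in brain. Lcn2, a siderophore-binding protein of glia and vessels, had 87 counts in LPS-LPS and 102 in LPS-saline, against 42 in saline-LPS and 42 in saline-saline, as group sums. It rose by 1.18 ± 0.28 on the log2 scale (edgeR adjusted p = 0.0145). C3, the central complement protein, was at 1.995 ± 0.618 CPM after prenatal LPS and 0.991 ± 0.201 CPM after prenatal saline (log2 1.00, adjusted p = 0.0029), and Serpina3n, a protease inhibitor of reactive astrocytes, at 16.7 ± 1.8 and 12.8 ± 1.1 CPM (SD, n = 8 each; log2 0.39, adjusted p = 0.00326). All 8 mice after prenatal LPS lay above all 8 after prenatal saline for C3, where 0.906% of all tested genes had no overlap in either direction. The list's median was -0.06, so its other members did not share this direction as a group. Without the 3 libraries with pituitary transcripts or Xist the call of Lcn2 was lost (1.16, adjusted p = 0.0793), as were those of Tab1, Chuk, Ptafr, Cd180, Otud7b, Tlr1, Il1rap and Il18bp (adjusted p of 0.0503 to 0.155). Within libraries under 1 CPM of Gabra6, 3 mice against 5, none of the 13 list genes called in the averaged comparison passed, and within the others, 5 mice against 3, Serpina3n, Tnfaip8l2 and Unc93b1 passed, with the averaged sign kept by all 13 in both sets.

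Of 16 genes of the interleukin-1 family and its receptors, 11 were tested, none rose and 2 fell, beside 4.9% and 2.92% of all genes, and the median was 0.00. Il1rap, the co-receptor of Il1r1, was at 33.9 ± 2.2 CPM after prenatal LPS and 40.7 ± 3.1 CPM after prenatal saline (SD, n = 8 each; log2 -0.27, edgeR adjusted p = 0.00407), the same direction as Il1r1. Il18bp, a decoy that binds interleukin-18, fell by 0.33 (adjusted p = 0.0358), a call that 11 of the 16 fits without 1 library did not give, namely those without any LPS-LPS library, LPS-saline replicates 1, 2 and 3, saline-LPS replicates 1 and 2, or saline-saline replicates 2 and 4 (adjusted p of 0.0505 to 0.074). Of 20 inflammatory genes driven by NF-kB, 6 were tested and none was called (median -0.11). The cytokine genes Il1b, Tnf, Il6 and Il1rn were too scarce to test. Il1b had 46 counts in LPS-LPS, 25 in LPS-saline, 28 in saline-LPS and 22 in saline-saline, Tnf 6, 5, 0 and 9, Il6 4, 4, 3 and 3, and Il1rn, the antagonist of the interleukin-1 receptor, 2, 3, 1 and 2 counts as group sums.

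The genes whose log2 levels ran most like each member over the 16 libraries were read as a description of libraries that share groups, depth and composition. For Cd14 they were Mpeg1 (r = 0.924), Olfml3 (0.895) and Siglech (0.883). For Nfkbia they were Arrdc2 (0.919), Sgk1 (0.899) and Tsc22d3 (0.857), and for Il1r1 Mamld1 (0.964), Osbpl3 (0.919) and Ylpm1 (0.915). For Saa3 they were Dbnl (0.895), Lor (0.894) and Hexa (0.882). The nearest gene was Ypel3 for Tlr4 (0.859), Khk for Tlr2 (0.817), Usp18 for Ly96 (0.807), Rassf1 for Myd88 (0.893), Oas1b for Lbp (0.787, after 2 predicted genes) and Pnpla2 for Lrg1 (0.869). Between members the values were lower: Saa3 had r = 0.648 with Tlr2 and 0.614 with Cd14, and Tlr2 had -0.542 with Il1r1. Taken as deviations from the group means, which removes differences between groups, these values were 0.2302, 0.217 and -0.277, and that of Saa3 with Lbp was 0.639, the largest between members. After prenatal saline the log2 level of Saa3 was -6.00 at 0 counts and -3.82 to -2.74 at 2 to 5 counts. The deviations of Saa3 in those groups thus rest on a few reads.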

How the data were processed

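The authors deposited whole-number read counts per Ensembl gene, 1 file per library. The submitters' processing notes name STAR 2.5.2b, HTSeq 0.11.2 and the build GRCm38. For the strand setting, annotation release and read filters, nothing is given in the sources used here. Symbols, lengths and coordinates came from GENCODE M21 (49412 identifiers matched, 259 not). The 5 entries that name no gene (8.37 to 11.0% of counts without a gene, 5.11 to 5.48% ambiguous, 3.18 to 3.90% not unique) entered neither the library sizes nor the tests.

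Genes were filtered with filterByExpr, scaled by TMM and fitted with the quasi-likelihood model of edgeR 4.0.16 in R 4.3.3, with 4 group means over all 16 libraries. P-values were two-sided and adjusted by Benjamini-Hochberg over 18875 genes, with a threshold of 0.05, in 8 comparisons. CPM values are TMM-scaled, and log2 CPM used a prior count of 0.5. Standard errors and 95% intervals came from the same fit, and intervals on summed counts cover counting error only, since reads carried no molecular identifiers. The fit was tested on simulated counts. Counts within groups differed beyond sampling noise (chi-square per degree of freedom of at least 5.18), so no library duplicated another of its own group. Libraries of different groups were not compared in this way.

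All 10 members are named in full, with up to 4 called genes per pathway list, 5 fixed cytokine and acute-phase genes, and the 3 most alike genes of a member. The relatives Saa1, Saa2 and Saa4, and marker genes that were called, were named after their values were seen. The members and lists were chosen with earlier results of these data known.

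The labels number the replicates. Over 15190 genes, same-numbered libraries had deviations from their group means that correlated at 0.124 to 0.56 (LPS-saline with saline-saline), 0.256 to 0.337 (LPS-LPS with saline-LPS) and 0.163 to 0.329 (LPS-LPS with LPS-saline), so every pair was over 0.1 there. The correlations fell to 0.0502 for saline-LPS with saline-saline and to 0.0179 for LPS-LPS with saline-saline. For 10 of the 16 libraries, the most alike library of another group bore the same number. Gabra6 also ran with the number, at 0.0375 to 0.104 CPM in replicates 2 and 19.5 to 52.7 CPM in replicates 4. Its part in these correlations was not tested. The numbers were taken as a possible pairing, left out of the reported fit and used as a block among the alternatives. Alternatives were DESeq2 1.42.0, other size factors, no filter, the replicate block, offsets for length and GC content, Gabra6 as a covariate or split, and each library left out. Leaving out the 3 libraries that stood apart was chosen after seeing the data.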

Additional observations from a re-analysis of the deposited data

Results flagged for a closer look

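In 6 of the 40 groups of 4 mice, 1 mouse stood far from the other 3, where chance gives about 1 in 20 groups. For Saa3, LPS-saline replicate 3 was at 2.96 CPM, against 0.509 to 0.888 CPM in the others of its group, and saline-LPS replicate 1 was at 0.0938 CPM, which is 3 counts, against 0 in the others. For Nfkbia, saline-saline replicate 3 was at 25.2 CPM, against 18.01 to 19.2 CPM in its group. For Tlr2, saline-saline replicate 2 was at 0.866 CPM, against 1.22 to 1.23 CPM. For Ly96, LPS-LPS replicate 4 was at 0.430 CPM, against 0.593 to 0.603 CPM, and saline-LPS replicate 1 was at 0.719 CPM, against 0.487 to 0.491 CPM. Ly96 had 9 to 23 counts per library.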

How the results depend on the processing

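The number of the 10 genes called was recomputed under each alternative. Before pubertal saline it was 0 in DESeq2, without the filter, with length and GC offsets and with these offsets plus the replicate block, and 0 to 1 with each library left out. Before pubertal LPS it was 0 in DESeq2 and without the 3 libraries that stood apart, and 0 to 1 with each library left out. In the averaged prenatal comparison it was 2 in DESeq2 (Nfkbia and Il1r1), with the replicate block (Saa3 and Il1r1), with length and GC offsets, without or with the block (Saa3 and Nfkbia), and with Gabra6 as a covariate (Saa3 and Cd14), and 1 to 2 with each library left out. For both injections against none it was 1 in DESeq2 (Lbp) and without the 3 libraries (Saa3), and 1 to 2 with each library left out. For the pubertal comparisons and the interaction it stayed at 0 in all alternatives run. DESeq2 gave Saa3 no adjusted p in the prenatal comparisons or with both injections against none, so it could not be called there. In the averaged prenatal comparison Tlr4, Tlr2, Ly96 and Lrg1 had none either, while the unadjusted p of Saa3 was 5.04e-12 in DESeq2. Tlr2 and Tlr4 also had none before pubertal saline, and Tlr2 had none with both injections against none. Each of these genes had an unadjusted p in DESeq2, so a missing adjusted p is not a test that failed to pass. For the other changes between alternatives the cause was not tested.

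With the replicate block the number called was 1, 1, 2 and 2 in the prenatal comparisons before pubertal saline, before pubertal LPS and averaged and for both injections against none; it changed no other call of a member. Over all genes, 34 were called before pubertal saline, 115 before pubertal LPS, 1476 averaged and 1238 with both injections against none. In the same order these counts were 409, 326, 2495 and 2185 with the replicate block, 20, 52, 643 and 528 with length and GC offsets, 121, 100, 1112 and 1056 with both, 429, 412, 2279 and 2003 in DESeq2, 506, 570, 2827 and 2318 with Gabra6 as a covariate, 127, 178, 1220 and 1029 without the filter, and 261, 6, 197 and 214 without the 3 libraries. Within libraries under and over 1 CPM of Gabra6 the averaged comparison called 13 and 742 genes. With each library left out they ranged from 7 (without saline-saline replicate 4) to 391 (without saline-LPS replicate 1), 22 (without LPS-LPS replicate 3) to 126, 700 (without LPS-saline replicate 1) to 1645, and 297 (without LPS-LPS replicate 3) to 1981 (without saline-LPS replicate 1). For pubertal LPS averaged, where none was called, edgeR called 10 genes without saline-LPS replicate 1, 6 and 50 within libraries under and over 1 CPM of Gabra6 and 1 without the 3 libraries, and after prenatal LPS it called 4 without the filter and 3 with Gabra6 as a covariate, none of them a member. The shares of all genes set beside the members' counts move with these.

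Values of the other sign were all uncalled. In the averaged prenatal comparison Ly96 was at -0.027 with length and GC offsets, -0.037 with these and the block and -0.11 within libraries at 1 CPM of Gabra6 or more. Myd88 was at -0.046 and -0.045 with the offsets, -0.0029 and -0.081 within the libraries under and over 1 CPM of Gabra6, and -0.024 without the 3 libraries. Lrg1 was at -0.082 and -0.085 with the offsets, and Tlr4 at -0.038 without the 3 libraries. Saa3 for pubertal LPS averaged was at 0.67 within the libraries under 1 CPM of Gabra6. With each library left out the range was -0.027 to 0.10 for Ly96, -0.023 to 0.058 for Myd88, -0.028 to 0.24 for Lrg1, -1.83 to 0.20 for Saa3 under pubertal LPS and -0.12 to 3.94 for its interaction.

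Depth limits what can be said of Saa3, with 10 counts in all after prenatal saline, and of Ly96, with 9 to 23 counts per library; the intervals of Saa3 also hold the spread among mice after prenatal LPS (0.509 to 2.96 CPM). A library's deviations ran with exonic length, Spearman -0.37 to -0.0457 after prenatal LPS and -0.0495 to 0.327 after prenatal saline. This trend thus ran with the prenatal injection, and the averaged prenatal comparison called 643 genes with length and GC offsets against 1476 without. The part of the trend in the prenatal differences, called or uncalled, was not tested beyond the offsets.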
